A study of Homo sapiens with 6 samples.

Results

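The MHC class I antigen presentation genes examined here were the heavy chain genes HLA-B, HLA-C, HLA-E and HLA-F, the light chain gene B2M, the transporter genes TAP1 and TAP2, the tapasin gene TAPBP and the regulator gene NLRC5. They were taken by symbol, 9 genes of the 58735 in the table, and 8 of the 9 had enough counts to be tested, all except HLA-B. RNA was sequenced in bulk from Huh7, an established human hepatocellular carcinoma line, grown in RPMI-1640 medium with 10% fetal bovine serum. The comparison was between cells with a short hairpin RNA against ITGB5, the integrin beta 5 subunit (shITGB5, 3 libraries), and cells with a control hairpin (shcontrol, 3 libraries). Both groups therefore carried a hairpin, and there was no group without one. How many hairpins stood behind a group, their sequences and the time after delivery were not stated in the labels. Nothing in the labels says whether replicates were separate cultures, and p-values here measure only the spread between libraries, which may be technical.

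MHC class I molecules display short peptides from inside the cell to CD8 T cells, and a stable molecule is a heavy chain, the light chain beta-2 microglobulin and a peptide. The proteasome cuts the peptides, the TAP transporter carries them into the endoplasmic reticulum, and tapasin holds empty class I molecules at the transporter while peptides are loaded. Interferon gamma raises most of these genes through the JAK kinases and the interferon regulatory factors, and NLRC5 acts at a shared promoter element of the heavy chain genes and B2M. Hepatocytes carry little class I at rest and more of it in inflammation.

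Of the 8 tested genes 4 fell with the ITGB5 hairpin (B2M, TAP1, TAP2 and TAPBP), none rose, and 4 did not pass (HLA-C, HLA-E, HLA-F and NLRC5). B2M fell by 10.4%, TAPBP fell by 15.0%, TAP1 fell by 18.6% and TAP2 fell by 20.1%. Of all 16577 genes tested, 15.1% were called, 6.74% lower and 8.31% higher with the hairpin (edgeR quasi-likelihood test, Benjamini-Hochberg adjusted p under 0.05). All 8 tested genes had a log2 change below 0, with a median of -0.21, against a median of 0.00 over all genes tested. In 5 of the 8 (HLA-C, B2M, TAP1, TAP2 and TAPBP) every ITGB5 hairpin library lay below every control library, where 13.8% of all genes tested did so. The summed level of the 9 genes was 730 to 753 CPM, that is counts scaled to a common library size, in the control libraries and 651 to 671 CPM in the ITGB5 hairpin libraries. In bulk RNA, fewer cells of a type and less RNA per cell cannot be told apart. When the test asked for a change beyond 1.2-fold, none of the 4 calls was kept.

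Because 4 genes fell together, their promoters are shown, with that of HLA-C for comparison. HLA-C is a heavy chain gene whose change did not pass. Its log2 change (-0.15) was close to that of B2M (-0.16), with 3192 counts against 46095. HLA-C therefore does not stand for an unchanged gene. RefSeq promoter windows (GRCh38.p14) were found for 7 of the 9 genes, all except HLA-E and NLRC5, and TAP1 had 2 windows, of which the one with matches is shown. Each line gives the 200 bases before the annotated start site, read 5′ to 3′ along the gene's own strand. Capitals mark matches, on either strand, to 4 short motifs: GAAANNGAAA, a core of interferon regulatory factor sites (IRF), GGGNNTTNCC, a core of NF-kappa B sites (kB), CCAAT, the Y box letters, and TGACG, the X2 box letters. Overlapping matches run into 1 block of capitals.
B2M, chr15:44711317-44711516, plus strand: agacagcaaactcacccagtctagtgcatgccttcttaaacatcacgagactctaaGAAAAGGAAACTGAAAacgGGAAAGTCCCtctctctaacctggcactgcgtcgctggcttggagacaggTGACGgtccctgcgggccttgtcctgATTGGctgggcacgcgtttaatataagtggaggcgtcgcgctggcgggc
TAP1, chr6:32853705-32853904, minus strand: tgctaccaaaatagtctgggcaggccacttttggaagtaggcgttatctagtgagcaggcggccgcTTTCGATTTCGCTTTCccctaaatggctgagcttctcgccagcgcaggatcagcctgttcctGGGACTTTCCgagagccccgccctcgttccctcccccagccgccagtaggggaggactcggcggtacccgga
TAP2, chr6:32838740-32838939, minus strand: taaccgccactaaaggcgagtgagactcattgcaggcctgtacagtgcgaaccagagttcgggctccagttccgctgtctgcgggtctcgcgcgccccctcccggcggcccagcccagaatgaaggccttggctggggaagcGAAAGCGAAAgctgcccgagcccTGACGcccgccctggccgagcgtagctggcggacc
TAPBP, chr6:33314079-33314278, minus strand: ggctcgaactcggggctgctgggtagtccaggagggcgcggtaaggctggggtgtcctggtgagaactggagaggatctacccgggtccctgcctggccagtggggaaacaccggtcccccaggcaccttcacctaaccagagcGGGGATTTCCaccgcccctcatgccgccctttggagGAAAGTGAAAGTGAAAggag
HLA-C, chr6:31272093-31272292, minus strand: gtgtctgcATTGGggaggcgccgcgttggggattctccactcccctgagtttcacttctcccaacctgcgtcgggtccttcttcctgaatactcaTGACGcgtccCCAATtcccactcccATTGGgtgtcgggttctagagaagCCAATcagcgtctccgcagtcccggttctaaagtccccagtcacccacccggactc
Each of the 4 genes that fell held the IRF letters in its window, as did HLA-F, and 3.57% of the 35116 windows in the table held them. In B2M a pair of overlapping IRF matches began 144 and 138 bases before the start site, in TAP1 134 and 128 bases and in TAPBP 20 and 14 bases. The single match of TAP2 began 58 bases before its start site. The kB letters were found in HLA-B, B2M, TAP1 and TAPBP and in 5.68% of all windows. The Y box letters were found in 5 of the 7 genes and 34.6% of all windows, and the X2 box letters in HLA-B, HLA-C, B2M and TAP2 and 24.6% of all windows. In HLA-C the Y box matches lay on both strands and no exact match to the IRF or kB letters was found. Only exact letters were searched, so a site with other letters would be missed. The HLA-C line holds tttcacttct and ggggattctcc, which resemble the IRF letters (other strand) and the kB letters without matching them. The HLA-C window may therefore still hold such sites, and so may that of HLA-B for IRF. The motifs were chosen with the changes of these genes known, and a match is a run of letters, not a measured binding site.

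**Figure D1:**
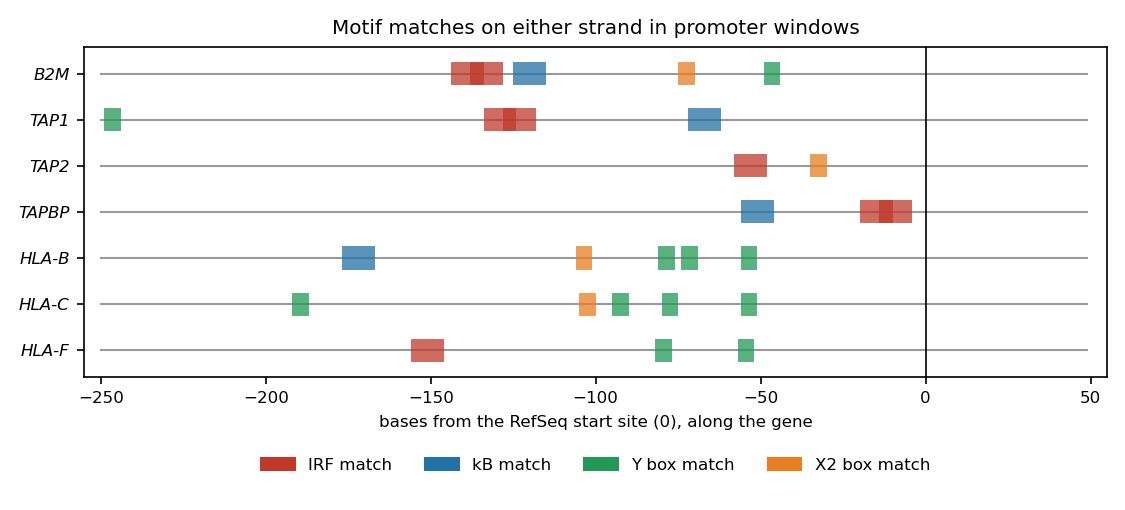
Motif matches in the RefSeq promoter windows of 7 class I pathway genes, by distance in bases from the start site (0), each line being 1 window of 300 bases and each bar 1 match, coloured by motif. The 4 genes that fell each show an IRF match, as does HLA-F, whose change did not pass. HLA-B and HLA-C show Y box and X2 box matches but no exact match to the IRF letters, and inexact sites were not searched.

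The libraries held 15777922 to 18011313 counts each. A count of 3, taken as the floor, stood for 0.167 to 0.190 CPM. ITGB5 itself, the targeted gene, stood at 205, 214 and 217 CPM in the controls and at 173, 181 and 174 CPM with the hairpin against it (log2 change -0.27, SE 0.032, edgeR adjusted p = 2.13e-09), lower in each ITGB5 hairpin library than in any control library. Mitochondrial genes took 3.46% to 3.54% of counts in the controls and 3.24% to 3.29% with the hairpin, and 26795 to 26976 against 25856 to 26143 genes had a count. Of 10 hepatocyte and hepatoma markers 7 rose, and their summed level went from 12705 to 12903 CPM in the controls to 13671 to 13824 CPM with the hairpin. Of 12 blood and immune markers 3 were tested and none was called, with a summed level of 39.3 to 39.9 CPM against 42.8 to 44.8 CPM. Most of that was CD14, while PTPRC, the common leukocyte antigen, had 12 counts over the 6 libraries and the B cell marker MS4A1 had 0. Of the other marker lists, 1 of 6 endothelial genes was tested and not called (summed 3.84 to 5.89 CPM against 4.23 to 5.85 CPM). Of 8 fibroblast and stellate genes 6 were tested and LUM rose (summed 294 to 308 CPM against 328 to 337 CPM). The part of these differences in the class I results was not tested.

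As counted, B2M was by far the most abundant of the 9 genes and HLA-B the least. To compare genes, CPM was divided by gene length in kilobases (FPKM), with the length that the table gives, which is the union of all annotated exons of a gene. The mean over the 6 libraries was 74.3 FPKM for B2M, 23.1 FPKM for TAPBP, 16.9 FPKM for HLA-E and 12.5 FPKM for HLA-C. It was 6.93 FPKM for TAP1, 2.0 FPKM for TAP2, 0.403 FPKM for NLRC5, 0.212 FPKM for HLA-F and 0.203 FPKM for HLA-B. From B2M down to NLRC5 no neighbours in this order had overlapping ranges over the libraries. The ranges of HLA-F (0.157 to 0.264 FPKM) and HLA-B (0.119 to 0.371 FPKM) overlapped, and the highest HLA-B library lay above the lowest NLRC5 library (0.356 FPKM). The scale depends on the length used, because the union of exons of B2M spans 6079 bases and its principal transcript 1705. With principal transcript lengths HLA-C (mean 20.4, range 18.3 to 21.7) and HLA-E (mean 19.3, range 18.5 to 21.0) changed places and their ranges overlapped, while the order of the other 7 genes was kept.

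**Figure D2:**
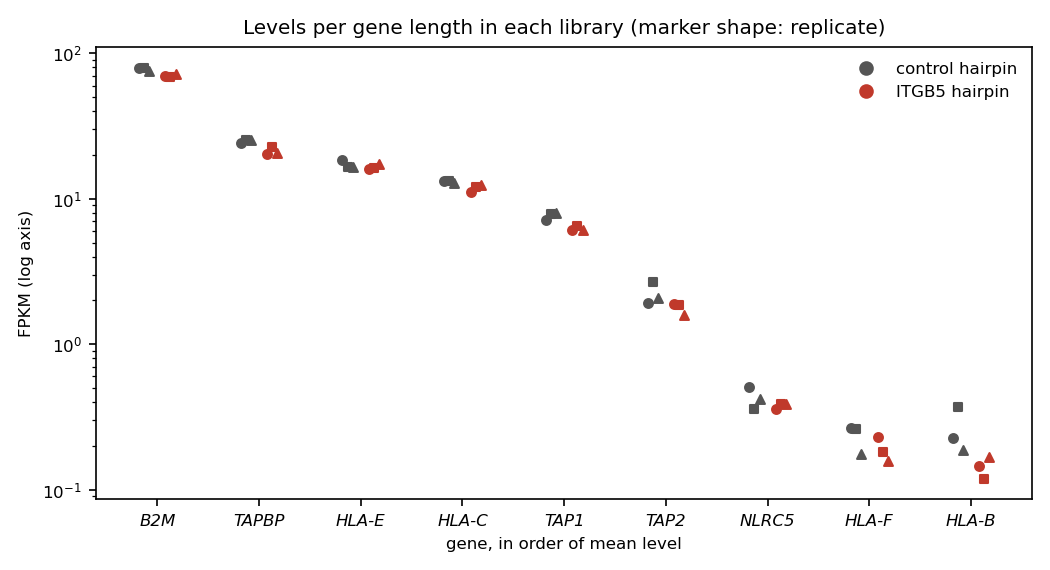
FPKM of each gene in each library on a log axis, genes in order of mean level, grey for the control hairpin and red for the ITGB5 hairpin, with 1 point a library. B2M lay between 68.6 and 79.9 FPKM, and NLRC5, HLA-F and HLA-B lay below 1 FPKM in every library.

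The light chain gene B2M (ENSG00000166710, chromosome 15, 44711487 to 44718877, plus strand) had the most counts of the 9. Beta-2 microglobulin pairs with every classical class I heavy chain, and a cell without it shows almost no class I at the surface. B2M stood at 486, 481 and 462 CPM in the control libraries and at 425, 417 and 439 CPM in the ITGB5 hairpin libraries. The lowest control library lay above the highest hairpin library. The means were 476.4 ± 12.3 CPM and 427.1 ± 11.3 CPM (SD, n = 3 each), a log2 change of -0.16 (SE 0.026, 95% interval -0.21 to -0.11, edgeR adjusted p = 4.18e-06). The change was -10.4% of the control level, with an interval of -13.5% to -7.07%. The spread between libraries of a group was 2.59% and 2.65% of the mean, where counting alone gives 1.12% and 1.16%. B2M shared no 50-base stretch with another gene.

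TAP1 and TAP2 encode the subunits of the transporter that moves peptides from the cytosol into the endoplasmic reticulum. Both genes lie in the class II part of the MHC on chromosome 6, on the minus strand, with TAP1 (ENSG00000168394) at 32845209 to 32853978 and TAP2 (ENSG00000204267) at 32821833 to 32838780. TAP1 stood at 34.2, 37.9 and 38.1 CPM in the controls and at 29.2, 31.2 and 29.2 CPM with the hairpin. All hairpin libraries lay below the lowest control. The means were 36.7 ± 2.23 CPM and 29.9 ± 1.16 CPM, a log2 change of -0.30 (SE 0.069, 95% interval -0.43 to -0.16, edgeR adjusted p = 0.000976). The exons of TAP1 overlap those of PSMB8-AS1 on the other strand over 456 bases, and PSMB8-AS1 had 22 counts over the 6 libraries.

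TAP2 was less abundant and less even. It stood at 12.2, 17.1 and 13.3 CPM in the controls and at 12.03, 11.9 and 10.2 CPM with the hairpin. The groups did not overlap, but control replicate 1 lay close to the 2 highest hairpin libraries, and control replicate 2 stood well above the rest. The means were 14.2 ± 2.58 CPM and 11.4 ± 1.03 CPM, a log2 change of -0.32 (SE 0.114, 95% interval -0.55 to -0.095), and the edgeR adjusted p was 0.0438. Without control replicate 2 the log2 change was -0.17 with an edgeR adjusted p of 0.466, and without ITGB5 hairpin replicate 3 it was -0.25 with an adjusted p of 0.212. The call was also lost with DESeq2 (adjusted p = 0.0742), with no filter on low counts (edgeR adjusted p = 0.0648) and with limma (adjusted p = 0.271). The spread of the TAP2 controls was 18.1% of their mean, where counting alone gives 6.5%. On the same strand TAP2 shares 2064 exon bases with AL669918.1, a gene model listed at 0 counts in all libraries. Within a library the ratio of TAP1 to TAP2 (FPKM) was 3.72, 2.95 and 3.81 in the controls and 3.23, 3.50 and 3.82 with the hairpin, so the groups overlapped.

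TAPBP encodes tapasin, which bridges class I molecules to the transporter and favours the binding of stable peptides. The gene (ENSG00000231925) lies at 33299694 to 33314387 on the minus strand of chromosome 6. It stood at 122, 128 and 129 CPM in the controls and at 103, 115 and 104 CPM with the hairpin. The groups did not overlap, and ITGB5 hairpin replicate 2 was the hairpin library nearest to the controls. The means were 126.3 ± 3.57 CPM and 107.4 ± 6.52 CPM, a log2 change of -0.23 (SE 0.040, 95% interval -0.31 to -0.15, edgeR adjusted p = 7.94e-06). The ratio of TAPBP to TAP1 (FPKM) was 3.398, 3.202 and 3.21 in the controls and 3.36, 3.50 and 3.39 with the hairpin, overlapping between groups. B2M, TAP1 and TAPBP were called when any 1 of the 6 libraries was left out, and under DESeq2 and both limma fits.

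**Figure D3:**
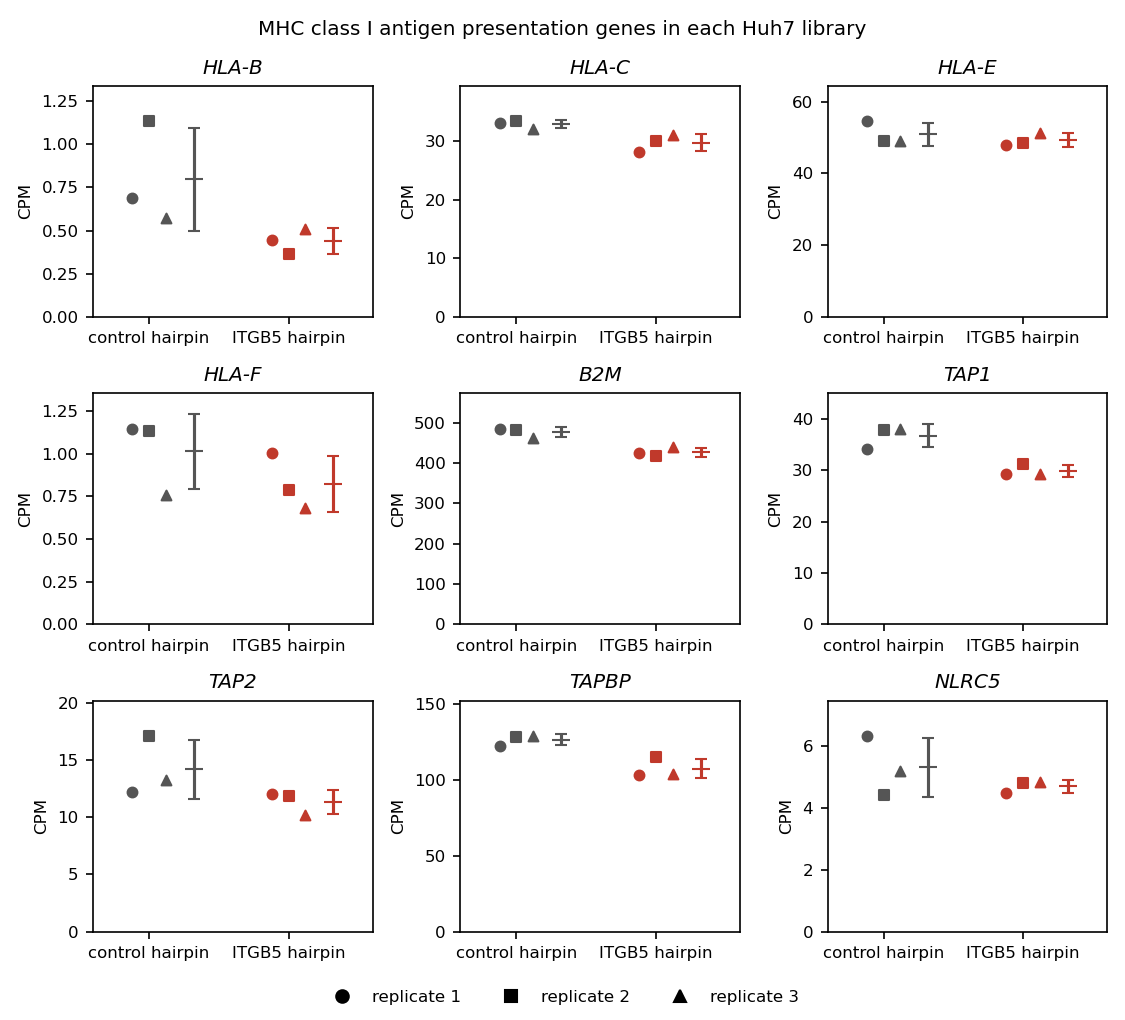
CPM of each of the 9 genes (vertical axes from 0, each with its own scale) in the control hairpin and ITGB5 hairpin libraries, marker shape giving the replicate number and bars the mean ± SD of 3 libraries. B2M, TAP1, TAP2, TAPBP, HLA-C and the barely detected HLA-B show no overlap between groups, while HLA-E, HLA-F and NLRC5 do.

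None of the tested heavy chain genes passed on its own. HLA-C, a classical heavy chain that presents peptides to T cells and is a ligand of killer cell receptors, was the nearest to the genes that fell. HLA-C (ENSG00000204525, chromosome 6, 31268749 to 31272130, minus strand) stood at 33.1, 33.4 and 32.1 CPM in the controls and at 28.1, 30.0 and 31.0 CPM with the hairpin. The groups did not overlap, although ITGB5 hairpin replicate 3 lay close to control replicate 3. The means were 32.9 ± 0.688 CPM and 29.7 ± 1.47 CPM, a log2 change of -0.15 (SE 0.070, 95% interval -0.29 to -0.0074), with an edgeR adjusted p of 0.167. Its interval held changes as large as that of B2M and changes close to 0. The ratio of B2M to HLA-C (FPKM) was 6.04, 5.94 and 5.94 in the controls and 6.23, 5.73 and 5.84 with the hairpin, overlapping between groups.

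HLA-E, a heavy chain that displays leader peptides of other class I chains to natural killer cell receptors, did not pass, and its groups overlapped. HLA-E (ENSG00000204592, chromosome 6, 30489467 to 30494205, plus strand) stood at 54.6, 49.1 and 49.1 CPM in the controls and at 48.0, 48.6 and 51.4 CPM with the hairpin. Control replicate 1 was the highest library, and the other 5 were mixed between groups. The log2 change was -0.05 (SE 0.056, 95% interval -0.16 to 0.066, edgeR adjusted p = 0.676), and it was 0.005 without control replicate 1. The interval reaches the size of the B2M change only at its lower bound, and whether HLA-E and B2M changed differently was not tested.

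HLA-F and HLA-B were close to the limit of detection. HLA-F, a nonclassical heavy chain (ENSG00000204642, chromosome 6, 29722775 to 29738528, plus strand), had 20, 19 and 12 counts in the controls and 18, 13 and 12 with the hairpin. Its log2 change was -0.30 (95% interval -1.09 to 0.48, edgeR adjusted p = 0.705), an interval too wide to show a change of the size seen in B2M. When 1 library was left out the HLA-F change lay between -0.47 (without ITGB5 hairpin replicate 1) and -0.18 (without ITGB5 hairpin replicate 3). HLA-F shares 535 exon bases with HLA-F-AS1 on the other strand, and HLA-F-AS1 had 179 counts where HLA-F had 94, so their reads cannot be told apart without knowing the strand setting. HLA-B, a classical heavy chain (ENSG00000234745, chromosome 6, 31269491 to 31357188, minus strand), had 12, 19 and 9 counts in the controls and 8, 6 and 9 with the hairpin. In CPM every hairpin library of HLA-B lay below every control library, by a small margin, and the gene was too low to be tested. HLA-B and HLA-C share 35 exon bases on the same strand, and 2.72% of the 50-base stretches of HLA-B occur in other genes. HLA-C had 3192 counts where HLA-B had 63, and the class I pseudogene HLA-H had 1552. The shared bases and stretches were taken from reference sequences. How reads from the class I alleles of Huh7 were assigned was not tested, so the low HLA-B count may not give its true level.

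Because heavy chain genes share sequence, and reads could be split between them, their counts were also summed. The sum of HLA-B, HLA-C, HLA-E and HLA-F was 89.6, 84.8 and 82.5 CPM in the controls and 77.6, 79.7 and 83.6 CPM with the hairpin, with overlap between groups. Its log2 change was -0.09 (SE 0.045, edgeR adjusted p = 0.172, two-sided exact permutation p = 0.2, where the smallest this design can give is 0.1). This holds for the sum of these 4 genes only, and the call changed when more class I genes were summed.

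NLRC5, a NOD-like receptor family protein that acts as a transactivator of class I genes, did not pass. NLRC5 (ENSG00000140853, chromosome 16, 56989485 to 57083531, plus strand) stood at 6.31, 4.41 and 5.19 CPM in the controls and at 4.45, 4.78 and 4.83 CPM with the hairpin. Control replicate 2 was the lowest of the 6 libraries and control replicate 1 the highest, so the controls spanned all hairpin libraries. The log2 change was -0.18 (SE 0.169, 95% interval -0.52 to 0.16, edgeR adjusted p = 0.568). Without control replicate 1 it was -0.04, and without control replicate 2 it was -0.30.

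**Figure D4:**
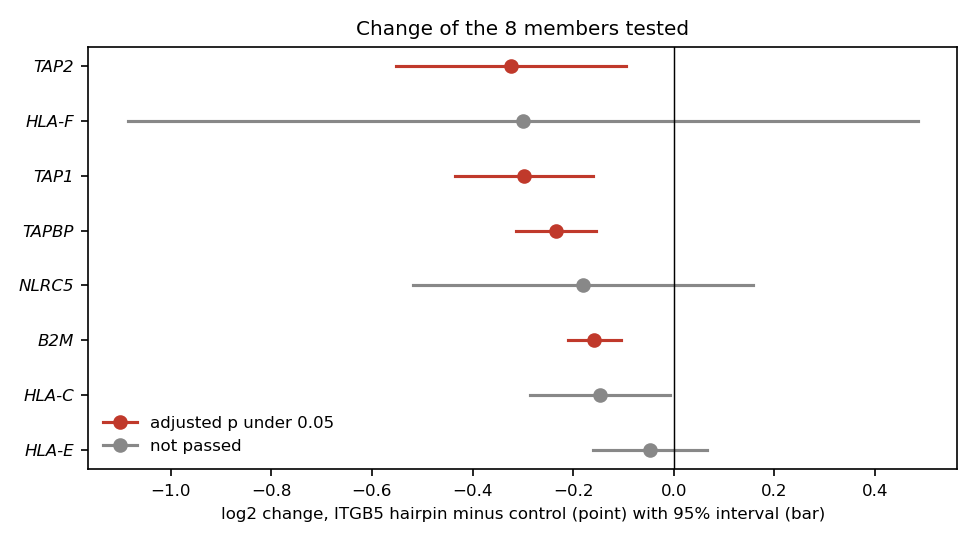
Log2 change of the 8 tested genes, ITGB5 hairpin minus control, as points with 95% intervals, red for an edgeR adjusted p under 0.05 and grey otherwise. All points lie below 0, and the intervals of B2M, TAPBP, TAP1 and TAP2, and narrowly that of HLA-C, exclude 0 before adjustment.

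The rest of the class I pathway was described with lists that hold 112 further genes of the table, of which 92 were tested. Of these 14 fell, 3 rose and 75 did not pass, with a median log2 change of -0.04. Over all genes tested 6.74% fell and 8.31% rose. No list had more than 3 members called in 1 direction.

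Of the other class I and class I-like molecules 10 of 16 were tested, 1 rose and 2 fell, FCGRT and MICB among them. FCGRT, the heavy chain of the neonatal Fc receptor, which also pairs with beta-2 microglobulin, went from 40.5, 41.9 and 37.0 CPM to 49.5, 49.2 and 49.3 CPM (log2 change 0.31, edgeR adjusted p = 7.09e-05). Every hairpin library of FCGRT lay above every control library, the opposite of B2M. MICB, a stress ligand of the killer cell receptor NKG2D that needs no light chain, went from 35.3 to 29.5 mean CPM (log2 change -0.26, edgeR adjusted p = 0.00504, and 0.0829 without control replicate 1).

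All 7 immunoproteasome and proteasome activator genes had a log2 change below 0, with a median of -0.22, and 3 of them fell. PSMB9, an interferon-induced catalytic subunit whose gene neighbours TAP1, stood at 15.4, 13.4 and 14.9 CPM in the controls and at 10.8, 11.4 and 10.9 CPM with the hairpin (log2 change -0.41, edgeR adjusted p = 0.00435). PSME2, a subunit of the 11S activator ring, stood at 139, 154 and 153 CPM in the controls and at 120, 121 and 127 CPM with the hairpin (log2 change -0.27, edgeR adjusted p = 8.53e-08). For both genes every hairpin library lay below every control. PSMB9 shares 139 exon bases with PSMB8 on the other strand, which had 665 counts where PSMB9 had 1302. PSME4, a nuclear proteasome activator, went from 204.1 to 185.2 mean CPM (log2 change -0.14, edgeR adjusted p = 0.000855). PSMB8 (log2 change -0.23, edgeR adjusted p = 0.347) and PSMB10 (log2 change -0.22, edgeR adjusted p = 0.401), the other interferon-induced subunits, did not pass, and had under 8 CPM each. PSME2 shares 216 exon bases with RNF31 on the other strand, and RNF31 had 29.1% as many counts. Of the constitutive catalytic subunits that these replace, none of 3 was called, with PSMB6 at 161.1 FPKM (log2 change -0.01, edgeR adjusted p = 0.865) and PSMB5 at 150.2 FPKM (log2 change -0.03, edgeR adjusted p = 0.622). PSMB6 turned to a change above 0 when control replicate 1 or ITGB5 hairpin replicate 1 or 2 was left out, with at most 0.0121.

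The chaperones and trimming enzymes of peptide loading mostly did not pass. Of 11 tested, 1 fell and 10 did not pass, and the median log2 change was -0.02. The chaperone CALR was the most abundant at 444.1 FPKM (log2 change 0.01, edgeR adjusted p = 0.918), and CANX, PDIA3 and the peptide trimming enzyme ERAP1 had adjusted p of 0.31, 0.778 and 0.23. The gene that fell was TAPBPL, a tapasin-related peptide editor, at 2.52, 2.68 and 1.90 CPM in the controls and 0.891, 1.39 and 1.36 CPM with the hairpin (log2 change -0.97, SE 0.298, edgeR adjusted p = 0.0178). Its groups did not overlap, but the edgeR adjusted p was 0.0646 without control replicate 1, 0.0861 without control replicate 2 and 0.0977 without ITGB5 hairpin replicate 1. TAPBPL shares 339 exon bases with VAMP1, which had 573% of its counts. Of 8 cytosolic peptidases 1 rose, PREP, a prolyl peptidase, from 65.5 to 77.5 mean CPM (log2 change 0.24, edgeR adjusted p = 7.04e-05), and 7 did not pass.

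Among 21 regulators of class I transcription 3 fell, IRF2 and STAT2 among them, and none rose (median log2 change -0.06). The log2 changes were -0.30 for IRF2 (edgeR adjusted p = 0.0253) and -0.20 for STAT2, a factor of type I interferon signalling (adjusted p = 0.0313). Both calls rested on few libraries. IRF2 had an edgeR adjusted p of 0.242 without control replicate 3, and 0.0788, 0.0529 and 0.0544 without ITGB5 hairpin replicates 1, 2 and 3. STAT2 had 0.301 without control replicate 2, and 0.0679, 0.0652 and 0.0688 without ITGB5 hairpin replicates 1, 2 and 3. RFX5, a partner of NLRC5 (log2 change -0.07, edgeR adjusted p = 0.582), and IRF1, an interferon-induced factor (log2 change -0.11, edgeR adjusted p = 0.294), did not pass.

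Of 11 interferon receptor and JAK pathway genes 2 fell and none rose. JAK1, the kinase shared by the receptors of type I and type II interferons, stood at 326, 328 and 326 CPM in the controls and 282, 279 and 282 CPM with the hairpin (log2 change -0.22, edgeR adjusted p = 6.18e-09). IFNAR1, a chain of the type I interferon receptor, went from 88.5 to 81.3 mean CPM (log2 change -0.12, edgeR adjusted p = 0.0441), and its adjusted p was 0.0526 to 0.159 when any 1 library was left out. Among 12 tested genes of class I turnover, WWP2, a ubiquitin ligase, rose (log2 change 0.31, edgeR adjusted p = 8.25e-06). NBR1, an autophagy receptor, fell (log2 change -0.13, edgeR adjusted p = 0.0142, but 0.18 without control replicate 3 and 0.0999 without ITGB5 hairpin replicate 2). Of 6 tested inhibitory ligand genes 2 fell. They were CD47, a signal against phagocytosis (log2 change -0.24, edgeR adjusted p = 0.0013, limma adjusted p = 0.0875), and CMTM6, a stabiliser of PD-L1 (log2 change -0.09, edgeR adjusted p = 0.0333). NBR1 overlaps AC060780.1 over 463 exon bases and CMTM6 overlaps CMTM7 over 324, both on the other strand and with 11.9% and 9.17% as many counts. The CMTM6 call was lost without any 1 library except ITGB5 hairpin replicate 1, with adjusted p of 0.0627 to 0.15.

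MHC class II genes, which serve presentation to CD4 T cells, were barely detected. All 12 lay under 1 FPKM, 3 had no count in any library, and their summed level was 3.04 to 4.41 CPM in the controls and 3.17 to 4.49 CPM with the hairpin. Of the 3 tested none was called, including HLA-DMA (log2 change 0.54, edgeR adjusted p = 0.406) and HLA-DMB (log2 change -0.08, edgeR adjusted p = 0.901), whose sign turned without control replicate 1 or ITGB5 hairpin replicate 1. The HLA-DMA change lay between 0.28 (without control replicate 3) and 1.09 (without control replicate 2) when 1 library was left out. Class I pseudogenes were tested in 2 of 11 cases and not called.

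**Figure D5:**
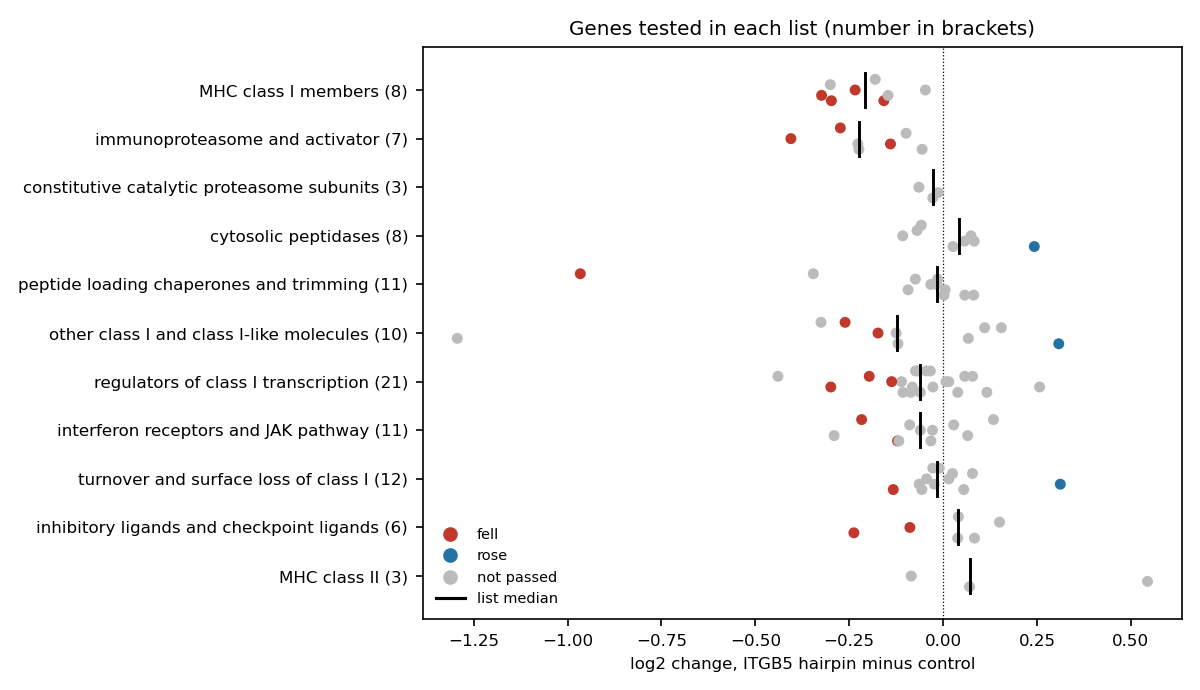
Log2 change of each tested gene in the lists of the antigen presentation pathway, ITGB5 hairpin minus control, with 1 point a gene, red for fell, blue for rose and grey for not passed, and a black bar at each list's median. The medians of the class I genes (-0.21) and the immunoproteasome list (-0.22) lie furthest below 0 among the lists with over 2 tested genes. Those of the peptidases (0.04), the inhibitory ligands (0.04) and MHC class II (0.07) lie above it.

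The neighbours of these genes in the MHC region of chromosome 6 did not move one way. Between the start of HLA-F and the end of TAPBP, 95 other protein-coding genes were tested, of which 7 rose, 5 fell (MICB and PSMB9 among them) and 83 did not pass. Their median log2 change was 0.02, against 0.00 over 13403 protein-coding genes tested, of which 1336 rose and 1050 fell. 

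The 3′ UTRs were searched for the 7-base words AGACCAA and GACCAAA, which were common among genes that fell in these data. One or the other occurred in 15.8% of 13241 protein-coding genes tested and in 34.8% of the 1034 that fell, counting 1 principal transcript a gene. Because the words were searched for being common among these same calls, the higher share is no separate evidence. The shares were not adjusted for 3′ UTR length. None of the 8 tested class I genes held either word. None held TCGGAGA or CGGAGAA either, which occurred in 3.35% of all protein-coding genes tested and in 2.61% of those that fell. In the wider pathway IFNAR1, JAK1 and CMTM6, which fell, held AGACCAA or GACCAAA, and the 3′ UTR of IFNAR1 was long (4313 bases). Whether the words have a part in any change was not tested.

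The gene with the largest change among those called, TAP2, was compared with 9727 protein-coding genes of at least 10 mean CPM for the likeness of their profiles over the 6 libraries. Likeness was the root mean square distance of log2 CPM, each gene centred on its own mean. The nearest were DCHS1 (0.0884), CCDC84 (0.101), INSIG2 (0.102), LPCAT4 (0.102) and PRKCI (0.103). DCHS1, INSIG2 and PRKCI fell (log2 changes -0.31, -0.22 and -0.26), and CCDC84 and LPCAT4 did not pass. The distance takes in the difference between the groups, so changes below 0 in these neighbours follow from how they were picked. The TAP2 profile itself leans on its high control replicate 2. No other class I gene was among the 5.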

How the data were processed

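RNA from 6 Huh7 libraries was prepared with a strand-keeping kit, per the labels' protocols. The authors deposited 1 table of raw counts per gene, whose gene IDs and positions all equal GENCODE 29 (GRCh38). Its columns coded S and NC were read as ITGB5 hairpin and control hairpin, though no label explains the codes. The aligner, the counter and whether it used strand were not given in the sources used here, so reads of overlapping genes may be mixed.

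Counts were tested with edgeR 4.0.16 (R 4.3.3; TMM scaling, filterByExpr, quasi-likelihood test, two-sided, Benjamini-Hochberg over 16577 genes, threshold 0.05). CPM used the TMM scaling, SE was derived from the F statistic, and FPKM was computed here from the table's gene lengths. The script was tested on simulated data. Alternatives were DESeq2 1.42.0, limma 3.58.1 on log2(FPKM + 1) and log2(FPKM + 0.1), other scalings and filters, a minimum fold of 1.2, a replicate block, each library left out and, added after seeing the data, principal transcript lengths.

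The 9 genes, the lists and the motifs were chosen with earlier results of these data known. From each list the called genes were named, at most 4 by size of change, or the 2 most abundant where none was called. For the called class I gene with the largest change, the 5 nearest profiles were named. Other genes with values were named after these were seen, and some genes of the lists are not reported here.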

Additional observations from a re-analysis of the deposited data

How the results depend on the processing

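The direction and the call of B2M, TAP1 and TAPBP were kept in all 15 alternatives except the test against a fold of 1.2. In that test none of the class I genes was called (0, and 0 at an unadjusted p under 0.05, where edgeR without a minimum fold called 4 and DESeq2 and limma 3 each), nor any of the other pathway genes (0, with 3 at an unadjusted p under 0.05), and 149 genes of the table were (83 higher, 66 lower). ITGB5 did not pass it either, with its log2 change still -0.27. With limma, 1319 genes were called at a pseudocount of 1 (736 higher, 583 lower) and 1334 at 0.1 (756 higher, 578 lower), against 2495, and 10 and 9 other pathway genes, against 17. The call of the heavy chain sum changed, from not passed to lower, when more class I genes were summed, a sum whose values are not reported here. Leaving out 1 library at a time gave 1939 to 2183 calls over the table, 3 to 4 of the class I genes and 12 to 15 other pathway genes. It gave log2 changes of -0.12 to -0.06 for the heavy chain sum, -0.29 to -0.25 for ITGB5, -0.0783 to 0.005 for HLA-E, -0.28 to 0.10 for HLA-DMB and -0.0593 to 0.0121 for PSMB6. Replicate numbers did not pair the libraries (correlations of same-numbered deviations -0.0208, -0.102 and -0.166 over 10071 genes). With the replicate block 2303 genes, 3 class I genes and 15 other pathway genes were called, and TAP2 had an edgeR adjusted p of 0.053. With the other edgeR scalings the median log2 change of all genes was -0.0012 (RLE factors) and -0.0034 (library totals). It was -0.0373 with DESeq2 and -0.0311 with edgeR without the low-count filter, fits that took in more genes of low count. Genes with few counts, HLA-B and HLA-F above all, carry a large counting error, and why their counts were low was not tested. The cause of the calls lost was not tested.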
